A study of Mus musculus with 20 samples.

Results

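The 10 genes described here encode UDP-glycosyltransferases of the mouse liver, 8 of the Ugt2 family (Ugt2a3, Ugt2b1, Ugt2b5, Ugt2b34, Ugt2b35, Ugt2b36, Ugt2b37 and Ugt2b38) and 2 of the Ugt3 family (Ugt3a1 and Ugt3a2). They were taken by gene symbol, each matched 1 of the 25444 gene loci in the deposited tables, and all 10 were among the 13704 genes tested. Ugt3a1 and Ugt3a2 were included by name although the Ugt3 family is known to transfer other sugars than glucuronic acid. Total RNA of the left lateral liver lobe was sequenced from 20 mice of 2 inbred strains, C57BL/6N (B6) and C3H/HeN (C3), all 20 weeks old. The 4 groups were B6 females, B6 males, C3 females and C3 males, with 5 mice in each. No mutation, transgene or treatment is named for any group, and each strain is a single inbred background. Males and females lived in different rooms, and the effects of sex and of room cannot be told apart. Reads of both strains were aligned to mm9, a genome of B6 origin, so a strain difference in RNA and one in alignment cannot be told apart either.

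Glucuronosyltransferases sit in the membrane of the endoplasmic reticulum and join glucuronic acid, carried by UDP, to small lipid-soluble molecules. The Ugt2b enzymes conjugate steroids, bile acids and many drugs, and the products are soluble enough to be passed into bile or blood and then into urine. Ugt3a1 is known to use UDP-N-acetylglucosamine, and Ugt3a2 UDP-glucose and UDP-xylose. Many liver genes of drug and steroid metabolism differ between male and female mice, for which the sex-specific rhythm of pituitary growth hormone is the best known signal.

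The 8 Ugt2 genes lay in 1 cluster of 534 kb on chromosome 5 (mm9), with no other locus of the table between them. In order along the chromosome these were Ugt2b34 (gene identifier 100727, chr5:87318795-87335962), Ugt2b1 (71773, chr5:87345664-87355528), Ugt2b35 (243085, chr5:87429885-87442299) and Ugt2b36 (231396, chr5:87494952-87521580). Ugt2b5 (22238, chr5:87553972-87569365), Ugt2b37 (112417, chr5:87669517-87683813), Ugt2a3 (72094, chr5:87753997-87766220) and Ugt2b38 (100559, chr5:87838965-87853228) followed. All but Ugt2b35 were on the reverse strand. Ugt3a1 (105887, chr15:9209584-9244791) and Ugt3a2 (223337, chr15:9265353-9300625) were neighbours on the forward strand of chromosome 15.

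Several members are close copies of each other. The coding sequences of Ugt2b5 and Ugt2b38 were identical at 97.1% of 1593 aligned bases, those of Ugt2b5 and Ugt2b37 at 94.7% and those of Ugt2b37 and Ugt2b38 at 94.1%. Ugt3a1 and Ugt3a2 were identical at 93.3% of 1572 bases. The reads were 125 bases long, and 384 of the 1760 windows of that length in the annotated Ugt2b5 transcript (21.8%) also occurred in Ugt2b38, while the other 8 members had no window in common with another gene. Read pairs that fit both genes were left out of the counts, so the levels of Ugt2b5 and Ugt2b38 are uncertain. The share of windows is not the share of pairs lost, because a pair fits both genes only where both of its reads do. Reads of one gene counted for the other in error were not examined.

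The stretches before the transcription starts of Ugt2b37, Ugt2b38 and Ugt2b5 are shown because these 3 near-copies differed from each other in their sex pattern, as described below. Each run is the 250 bases upstream of the start in RefSeq on GRCm38.p6, written 5′ to 3′ on the gene's strand (reverse), with capitals marking the longest run of letters, 62 bases, that is the same in all 3. They lie at chr5:87254789-87255038 for Ugt2b37, chr5:87424204-87424453 for Ugt2b38 and chr5:87140341-87140590 for Ugt2b5.
Ugt2b37: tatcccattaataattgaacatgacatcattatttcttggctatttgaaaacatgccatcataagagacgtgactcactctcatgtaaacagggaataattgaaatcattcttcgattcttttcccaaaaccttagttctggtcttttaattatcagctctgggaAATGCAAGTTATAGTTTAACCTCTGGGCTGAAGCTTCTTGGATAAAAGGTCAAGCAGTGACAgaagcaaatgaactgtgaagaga
Ugt2b38: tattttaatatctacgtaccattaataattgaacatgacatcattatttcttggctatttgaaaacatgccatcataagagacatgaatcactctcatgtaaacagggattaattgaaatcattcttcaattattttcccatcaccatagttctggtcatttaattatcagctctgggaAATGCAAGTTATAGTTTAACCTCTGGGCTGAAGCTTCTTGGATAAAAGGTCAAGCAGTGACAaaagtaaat
Ugt2b5: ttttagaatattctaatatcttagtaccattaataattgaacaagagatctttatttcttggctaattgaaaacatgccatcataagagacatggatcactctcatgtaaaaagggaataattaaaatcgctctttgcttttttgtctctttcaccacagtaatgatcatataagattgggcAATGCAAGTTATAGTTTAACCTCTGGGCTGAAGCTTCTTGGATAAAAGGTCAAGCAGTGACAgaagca

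The annotated starts of the 3 genes are not at the same distance from the shared sequence. The capitals begin 85 bases before the start in Ugt2b37, 71 before it in Ugt2b38 and 68 before it in Ugt2b5. Over the aligned bases Ugt2b37 and Ugt2b38 were identical at 95.3%, Ugt2b5 and Ugt2b38 at 88.3%, and Ugt2b5 and Ugt2b37 at 88.1%. Promoters were found in RefSeq for 9 of the 10 members, all but Ugt3a2. None of these 9 held the STAT5 motif TTCNNNGAA or the HNF4A motif CAAAGTCCA on either strand in the upstream 250 bases, against 7.02% and 0.384% of 32851 promoters. The absence of a match says only that these letters are not in this window.

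To compare levels between genes, the TPM values (read counts corrected for gene length and scaled to a common total) were used. The 10 members together summed to 3441 ± 515 TPM in B6 females (mean and SD, n = 5) and 4247 ± 655 in B6 males. In C3 the sum was 2468 ± 356 TPM in females and 3365 ± 458 in males. Ugt2b5, Ugt2b36 and Ugt2b1 had the largest shares, and in each liver these 3 genes held between 53.6% and 69.4% of the sum.

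The leading gene was not the same in every group. Ugt2b5 led in B6 females at 936 ± 136 TPM and in B6 males at 1159 ± 158 TPM, above Ugt2b36 in 5 of 5 livers with no overlap of the ranges. In C3 females Ugt2b36 (563 ± 47.5 TPM) and Ugt2b5 (535 ± 52.4 TPM) had overlapping ranges, with Ugt2b36 the higher in 4 of 5 livers. In C3 males Ugt2b1 (859.5 ± 194 TPM) stood first and Ugt2b5 (779.8 ± 86.3 TPM) second, and these too overlapped, with Ugt2b1 the higher in 3 of 5 livers. Ugt3a2, Ugt2b34, Ugt2a3 and, in females only, Ugt2b1 formed a middle group whose neighbours overlapped in every group, between 277 ± 39.6 TPM for Ugt3a2 in C3 males and 476 ± 104 TPM for the same gene in B6 females. Ugt2b35 and then Ugt3a1 came seventh and eighth in all 4 groups. The last places went to Ugt2b37 and Ugt2b38, whose order depended on sex: Ugt2b37 was above Ugt2b38 in 5 of 5 livers of both female groups, and Ugt2b38 above Ugt2b37 in 5 of 5 livers of both male groups.

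The share of Ugt2b1 in the summed TPM was 9.89 ± 1.29% in B6 females and 18.2 ± 2.57% in B6 males, and 12 ± 0.707% against 25.3 ± 2.38% in females and males of C3. The share of Ugt2b5 was 27.2 ± 0.788% and 27.4 ± 0.902% in B6 females and males, against 21.8 ± 1.19% and 23.3 ± 1.38% in C3. The Ugt2b1 share differed between the sexes by more than its SD in both strains, and the Ugt2b5 share differed between the strains by more than its SD in both sexes. These are descriptions over the chosen genes and were not tested.

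**Figure D1:**
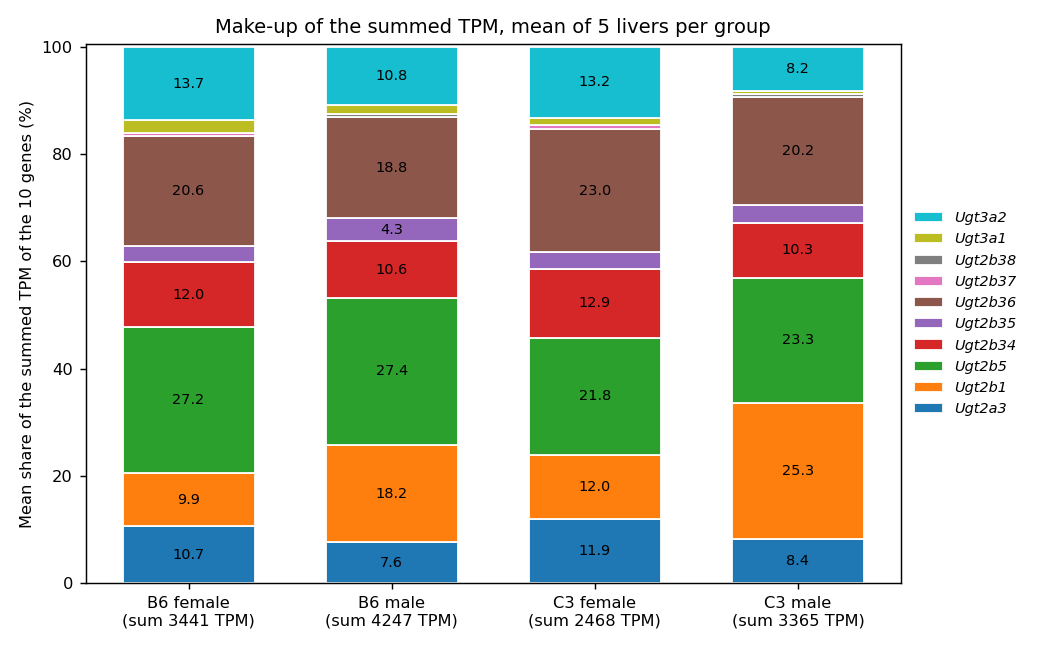
Stacked bars give the mean share (%) of each gene in the summed TPM of the 10 genes for the 5 livers of each group, with the mean sum under each bar. The Ugt2b1 segment is 9.89% of the sum in B6 females and 25.3% in C3 males, and Ugt2b37 and Ugt2b38 are barely visible in any group.

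Female and male livers were compared within each strain by edgeR's quasi-likelihood test on the counts, and a gene was called at an adjusted p under 0.001 with a log2 fold change beyond 0.5. In B6, 4 of the 10 members were called, 1 higher in females (Ugt2b37) and 3 higher in males (Ugt2b1, Ugt2b35 and Ugt2b38), where 6.34% of all genes tested were called. In C3, 6 members were called, Ugt2b37 and Ugt3a1 higher in females and Ugt2b1, Ugt2b5, Ugt2b35 and Ugt2b38 higher in males, where 6.90% of all genes were called. By direction the background in B6 was 3.23% higher in females and 3.12% higher in males, and in C3 4.11% and 2.79%. The median log2 fold change (female over male) of the 10 members was -0.26 in B6 and -0.35 in C3, beside 0.0018 and 0.015 over all genes tested. At an adjusted p under 0.05 with no fold threshold, 7 members passed in B6 and 9 in C3, beside 34.6% and 40.0% of all genes. In liver tissue as a whole, fewer cells of a type and less RNA per cell cannot be told apart. Levels below are in CPM, the count divided by the library total and scaled to a common total, which compare one gene between livers.

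**Figure D2:**
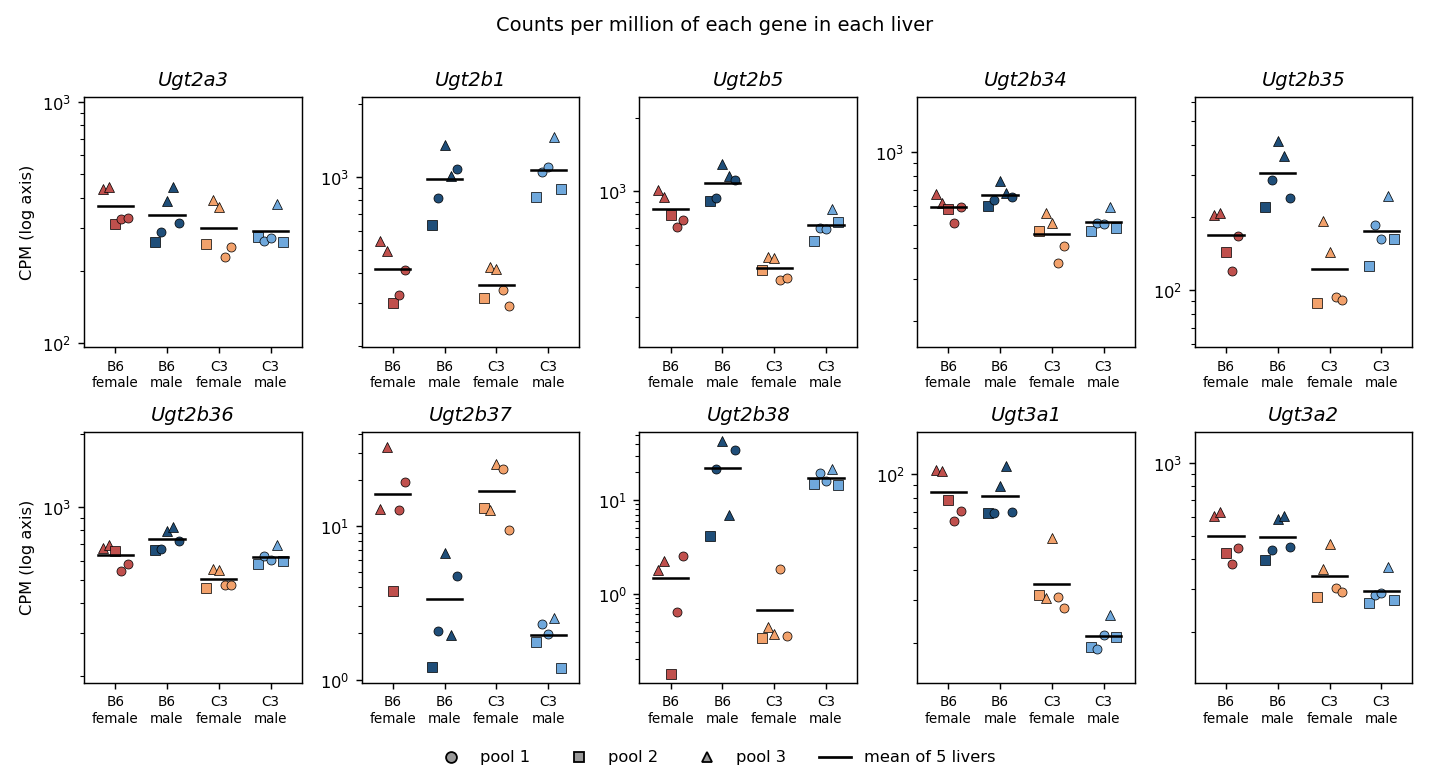
Points give CPM of each gene in each of the 20 livers on a logarithmic axis that differs between panels, bars the mean of the 5 livers of a group, and symbols the sequencing pool. Male livers lie above all female livers of their strain for Ugt2b1 and Ugt2b38, and C3 livers lie below all B6 livers of their sex for Ugt2b5 and Ugt3a1.

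Ugt2b1, whose rat namesake conjugates bisphenol A, was the abundant gene with the largest sex difference. It stood at 546, 495, 301, 326 and 411 CPM in the 5 B6 females and at 633, 817, 1355, 1011 and 1082 CPM in the 5 B6 males. In C3 the females had 315, 423, 416, 341 and 291 CPM and the males 828, 1051, 1104, 1458 and 895 CPM. Every male liver was above every female liver of its strain. The male level was 2.48-fold the female level in B6 (log2 female over male -1.31, SE 0.10, edgeR adjusted p = 2.49e-08) and 3.41-fold in C3 (log2 fold change -1.77, SE 0.11, edgeR adjusted p = 4.58e-10). Within the 3 sequencing pools the difference of mean log2 CPM, female minus male, lay between -1.36 and -1.07 in the B6 mice and between -1.80 and -1.45 in the C3 mice. Here and below, each pool held only 1 or 2 livers of a group. In pool 2 the B6 difference of -1.07 set 1 female against 1 male.

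Ugt2b38 was far lower in females. Its values were 1.79, 2.24, 0.138, 0.632 and 2.54 CPM in B6 females and 4.12, 21.6, 43.0, 6.99 and 34.4 CPM in B6 males, with a wide spread in both. C3 females had 0.330, 0.435, 0.370, 1.83 and 0.353 CPM, and C3 males lay close together at 14.8, 19.7, 16.1, 21.7 and 14.6 CPM. The ranges of the sexes did not overlap in either strain, though the lowest B6 male and the highest B6 female were only 4.12 and 2.54 CPM. The male level was 15-fold the female level in B6 (log2 female over male -3.91, SE 0.54, edgeR adjusted p = 2.52e-05) and 35.8-fold in C3 (log2 fold change -5.16, SE 0.62, edgeR adjusted p = 5.45e-06). All female livers were above the 3 counts taken as the floor of detection. Their Ugt2b38 counts ran from 4 to 103, beside 14319 to 47328 for the near-copy Ugt2b5. Whether misplaced Ugt2b5 reads were among these few counts was not tested, so the fold changes are uncertain in that respect. Within pools, female minus male lay between -4.73 and -3.11 (log2 CPM) in the B6 mice and between -5.72 and -4.44 in the C3 mice.

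Ugt2b37, the near-copy of Ugt2b38, was the Ugt2 gene with the reverse pattern. B6 females had 12.9, 32.9, 3.77, 12.8 and 19.3 CPM and B6 males 1.21, 2.09, 6.69, 1.95 and 4.74 CPM. The B6 ranges overlapped, because 1 female lay at 3.77 CPM and 2 males at 4.74 and 6.69 CPM. In C3 the females stood at 13.1, 12.9, 25.5, 23.6 and 9.42 CPM and the males at 1.75, 2.29, 2.0, 2.52 and 1.19 CPM, without overlap. The female level was 4.45-fold the male level in B6 (log2 fold change 2.15, SE 0.39, edgeR adjusted p = 0.000412) and 7.26-fold in C3 (log2 fold change 2.86, SE 0.43, edgeR adjusted p = 5.98e-05). Within pools, female minus male was 1.62 to 2.51 log2 CPM in B6 and 2.79 to 3.16 in C3. The B6 call was lost in 5 of the 20 fits that left out 1 liver (females 2 and 5 and males 1, 2 and 4), with adjusted p up to 0.0018, and the C3 call in none. It was also lost, at log2 fold changes of 2.02 to 2.20, without the pool term (edgeR adjusted p = 0.00353), with the replicate number as a block (0.00209), in the B6 livers alone (0.00265) and without pool 3 (0.00679).

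Ugt2b35 was higher in males of both strains. B6 females had 205, 209, 143, 119.7 and 167 CPM and B6 males 221, 285, 415, 359 and 241 CPM, with every male above every female. C3 females had 88.3, 193, 144, 93.8 and 91.1 CPM and C3 males 126, 186, 163, 244 and 162 CPM, and here the ranges overlapped, with the highest female above 4 of the 5 males. The male level was 1.88-fold the female level in B6 (log2 female over male -0.91, SE 0.10, edgeR adjusted p = 3.12e-06) and 1.73-fold in C3 (log2 fold change -0.79, SE 0.11, edgeR adjusted p = 2.15e-05). Within pools, female minus male lay between -0.90 and -0.62 (log2 CPM) in the B6 mice and between -0.91 and -0.55 in the C3 mice. Without the pool as a term in the model neither call was made (log2 fold change -0.92, edgeR adjusted p = 0.00751 in B6, and -0.62, 0.0578 in C3), in a fit that called 3.07% and 3.52% of all genes.

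Ugt2b5, the leading gene by TPM in B6, differed less. It had 1011, 939, 795, 711 and 759 CPM in B6 females and 905, 938, 1289, 1150.0 and 1109 CPM in B6 males, with overlapping ranges. The B6 difference passed the p threshold but not the fold threshold (log2 fold change -0.43, SE 0.066, edgeR adjusted p = 7.52e-05). In C3, females had 472, 534, 526, 429 and 435 CPM and males 620.0, 702, 692, 843 and 742 CPM, with every male above every female. There the male level was 1.64-fold the female level (log2 female over male -0.71, SE 0.067, edgeR adjusted p = 2.37e-07), and the within-pool differences ranged from -0.69 to -0.52 log2 CPM.

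Ugt2b36, Ugt2b34 and Ugt2a3 were not called in either strain. Ugt2b36 ranged from 545 to 693 CPM in B6 females, 664 to 828 in B6 males, 462 to 556 in C3 females and 580.3 to 694 in C3 males. Its adjusted p passed 0.001 in both strains with a log2 fold change (female over male) of -0.29 (SE 0.052, edgeR adjusted p = 0.000392) in B6 and -0.41 (SE 0.053, edgeR adjusted p = 1.3e-05) in C3, under the fold threshold. In C3 no female of the 5 reached the lowest male. For Ugt2b34 the log2 fold change was -0.23 (SE 0.070) in B6 and -0.28 (SE 0.071) in C3. Ugt2a3, whose human counterpart conjugates bile acids, had 0.063 (SE 0.054) in B6 and -0.15 (SE 0.055) in C3, the smallest values of the Ugt2 genes.

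Of the Ugt3 genes, Ugt3a2 was at 497 ± 109.9 CPM in B6 females (mean and SD, n = 5) and 495 ± 93.0 in males of that strain. The log2 fold change of Ugt3a2 (female over male) was -0.069 (SE 0.059) in B6 and 0.016 (SE 0.060) in C3. Ugt3a1 had 104, 103, 78.1, 63.7 and 70.6 CPM in B6 females and 69.0, 69.4, 89.2, 108 and 69.4 CPM in B6 males, which overlapped (log2 fold change -0.023, SE 0.10, edgeR adjusted p = 0.886). In C3 its values were 31.5, 30.7, 54.5, 31.1 and 27.9 CPM in females and 19.3, 19.0, 21.6, 26.2 and 21.2 CPM in males. The C3 females were all above the C3 males, and the female level was 1.46-fold the male level (log2 fold change 0.54, SE 0.11, edgeR adjusted p = 0.000878). This call was close to both thresholds: it was made in 6 of the 12 other settings and in 2 of the 20 fits that left out 1 liver, where the log2 fold change ran from 0.44 to 0.64 and adjusted p reached 0.00456. The within-pool differences, scaled by library totals alone and so not on the scale of the fit, ranged from 0.54 to 0.65 log2 CPM.

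Along the cluster, genes called in opposite directions were interleaved with genes that were not called. Counted from the first base of Ugt2b34, the male-biased Ugt2b1 began at 26.9 kb and Ugt2b35 at 111 kb. The female-biased Ugt2b37 began at 351 kb, between Ugt2b5 and Ugt2a3, and the male-biased Ugt2b38 began at 520.2 kb. Ugt2b37 and Ugt2b38 were thus separated by Ugt2a3 alone, a gene called in neither strain.

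**Figure D3:**
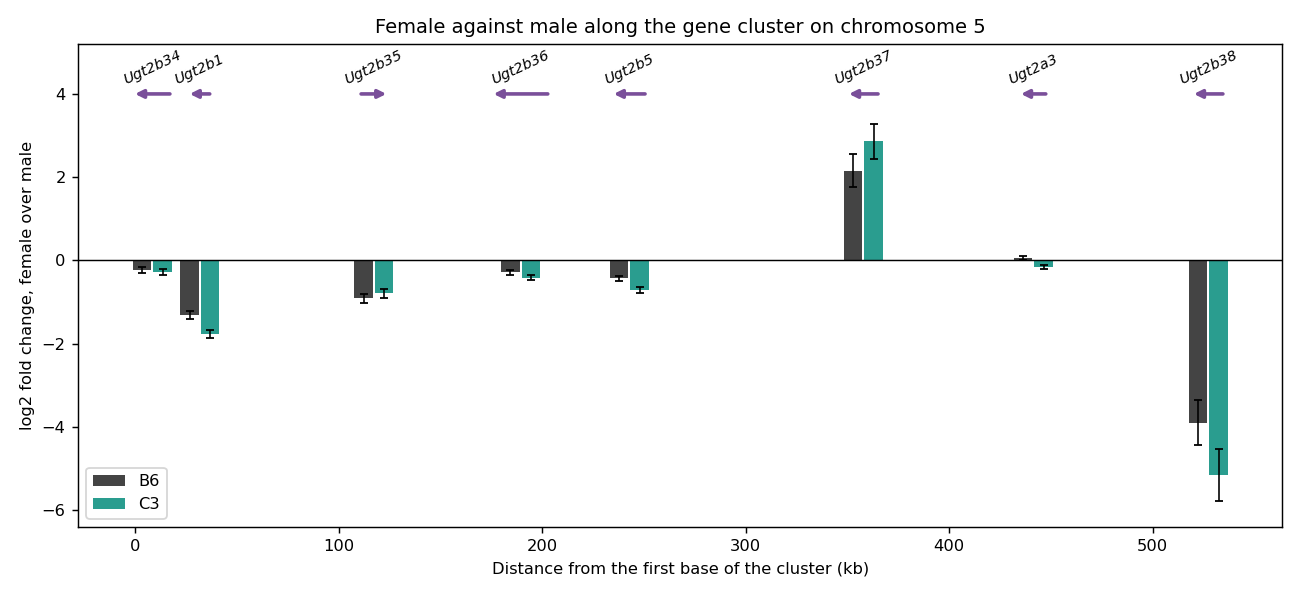
Bars give the fitted log2 fold change (female over male) in B6 and C3 with SE bars for the 8 Ugt2 genes, placed by their distance in kb from the first base of the cluster on chromosome 5, and arrows give each gene's extent and direction of transcription. Ugt2b37 is the one gene with bars well above 0, and Ugt2b38 has the longest bars below 0.

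C3 livers were then compared with B6 livers within each sex. In females 2 of the 10 members were called, Ugt2b5 and Ugt3a1, both lower in C3, where 9.40% of all genes were called with 4.77% lower and 4.63% higher in C3. In males 3 were called, Ugt2b35, Ugt3a1 and Ugt3a2, all lower in C3, where 9.64% of all genes were called with 5.55% lower and 4.09% higher in C3. The median log2 fold change (C3 over B6) of the 10 members was -0.37 in females and -0.34 in males, beside 0.020 and 0.015 over all genes tested. At an adjusted p under 0.05 with no fold threshold, 7 members passed in females and 6 in males, beside 32.9% and 34.5% of all genes. The strain and sex comparisons share livers.

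Ugt3a1 had the largest strain difference. Its B6 livers ranged from 63.7 to 104 CPM in females and 69.0 to 108 in males, and its C3 livers from 27.9 to 54.5 and 19.0 to 26.2, so that no C3 liver reached a B6 liver of its sex. The B6 level was 2.26-fold the C3 level in females (log2 C3 over B6 -1.18, SE 0.11, edgeR adjusted p = 6.74e-08) and 3.34-fold in males (log2 fold change -1.74, SE 0.11, edgeR adjusted p = 4.6e-10). Within pools, C3 minus B6 ranged from -1.34 to -1.19 log2 CPM in females and from -1.91 to -1.77 in males. Both calls were made in all 20 fits without 1 liver.

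Ugt2b5 and Ugt3a2 were lower in C3 in both sexes by smaller amounts. For Ugt2b5 the B6 female level was 1.66-fold the C3 female level (log2 C3 over B6 -0.73, SE 0.066, edgeR adjusted p = 6.86e-08), and in males the log2 fold change of -0.45 (SE 0.067, edgeR adjusted p = 3.67e-05) was under the fold threshold, although no C3 male reached the lowest B6 male. For Ugt3a2 the males were called (log2 fold change -0.55, SE 0.060, edgeR adjusted p = 9.56e-07), with 398, 438, 585, 603 and 450.0 CPM in B6 and 265, 284, 290.2, 373 and 271 CPM in C3. Without the pool term the Ugt3a2 call was lost (log2 fold change -0.65, edgeR adjusted p = 0.00359). In females, with 604, 626, 426, 384 and 447 CPM in B6 and 279.7, 364, 463, 305 and 292 CPM in C3, the ranges overlapped and the change was under the fold threshold (log2 fold change -0.47, SE 0.059, edgeR adjusted p = 6.33e-06). Ugt2b35 was called in males (log2 fold change -0.55, SE 0.11, edgeR adjusted p = 0.000493) but in 14 of the 20 fits without 1 liver, the call being lost without B6 males 1, 2 or 3 or C3 males 1, 3 or 4 (adjusted p up to 0.00244). Without the pool term it was also lost (log2 fold change -0.70, edgeR adjusted p = 0.0293).

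The other members were not called by strain. Ugt2b34 had a log2 fold change (C3 over B6) of -0.31 in females and -0.26 in males, and no C3 male reached the lowest B6 male. The values were -0.25 and -0.13 for Ugt2b36, -0.25 and -0.031 for Ugt2a3, and -0.12 and 0.34 for Ugt2b1. For the 2 low members the SE was large, so that a sizeable strain difference was not detectable: Ugt2b37 had 0.28 (SE 0.36) and -0.43 (SE 0.45), and Ugt2b38 had -1.09 (SE 0.69) and 0.17 (SE 0.49).

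**Figure D4:**
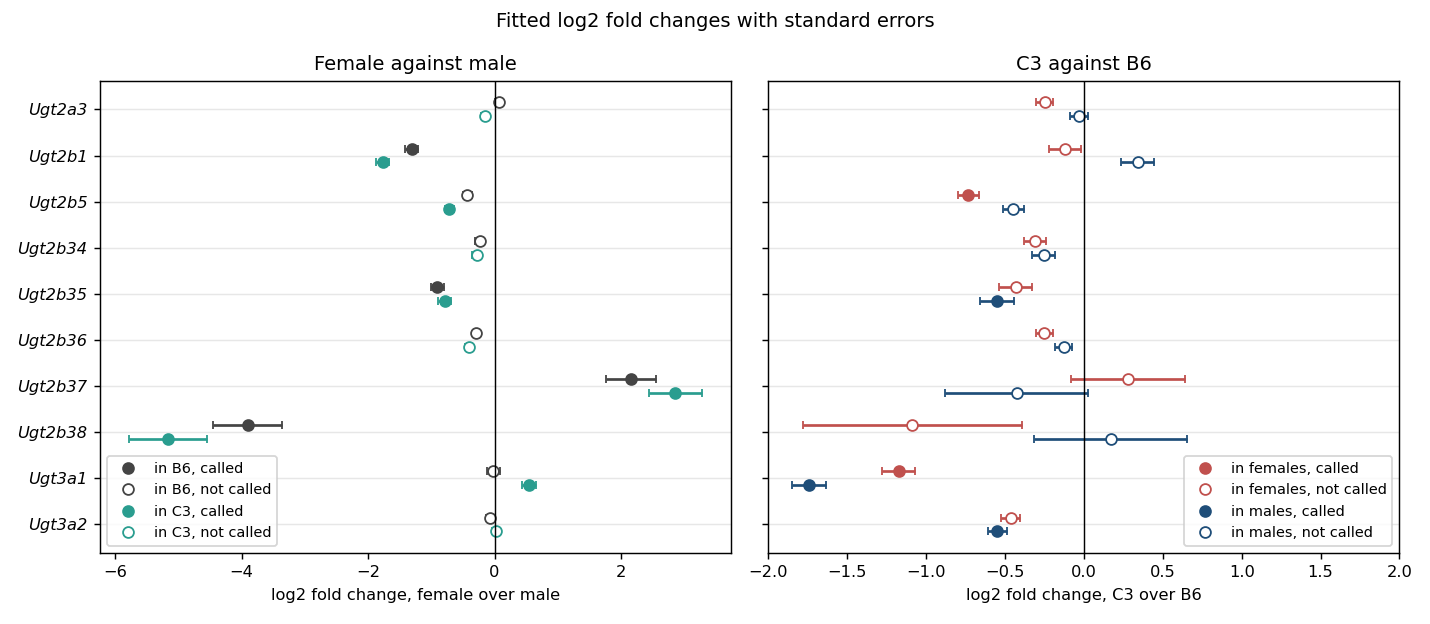
Points give the fitted log2 fold change of each gene with SE bars, female over male on the left and C3 over B6 on the right, with separate horizontal axes. Filled points were called (adjusted p under 0.001 and log2 fold change beyond 0.5). Ugt2b37 and Ugt2b38 lie on opposite sides of 0 in the sex comparison, and Ugt3a1 lies farthest from 0 among the called points of the strain comparison.

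By the ranges of CPM alone, the 5 livers of one group did not overlap those of the other for 3 members between the sexes in B6 and for 6 in C3, where 11.4% and 13.4% of all genes tested had ranges apart. Between the strains the ranges were apart for 2 members in females and 4 in males, beside 13.1% and 15.5% of all genes. In females these were Ugt2b5 and Ugt3a1, and in males Ugt2b5, Ugt2b34, Ugt3a1 and Ugt3a2.

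Whether the sex difference itself depended on strain was tested by the interaction term, the log2 fold change (female over male) in C3 minus that in B6. None of the 10 members was called by edgeR, DESeq2 or limma. Of all genes, edgeR called 0.401% (0.270% with a higher and 0.131% with a lower female-over-male value in C3). An unadjusted edgeR p under 0.05 was found for 4 members and for 2203 of the 13704 genes tested. Ugt3a1 alone had an adjusted p under 0.05 (interaction 0.57, SE 0.15, edgeR adjusted p = 0.0467), where 2.96% of all genes had one, and across the other settings its adjusted p ran from 0.017 to 0.37. Ugt2b1 had -0.46 (SE 0.14, edgeR adjusted p = 0.1) and Ugt2b5 -0.28 (SE 0.093, edgeR adjusted p = 0.119). Thus Ugt2b5 was called between the sexes in C3 and not in B6, but a difference between the strains in its sex effect was not shown. The estimates for Ugt2b37 (0.71, SE 0.57) and Ugt2b38 (-1.26, SE 0.84) had wide errors.

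The level of most members also moved with the sequencing pool, a term in the model. This was examined after the values had been seen. The libraries had been assigned to 3 pools at random, with 1 or more livers of every group in each. The 7 libraries of pool 3 were the deepest of the 20. All 10 members had higher fitted levels in pool 3 than in pools 1 and 2, and 2 were called, where 14.6% of all genes were called and 8.34% were called higher and 6.28% lower in pool 3. The difference was 0.64 ± 0.078 (log2, with SE) for Ugt2b35 and 0.50 ± 0.076 for Ugt2b1, the called genes, and 0.47 ± 0.041 for Ugt2a3. For Ugt2a3 the 7 libraries of pool 3 ranged from 367 to 445 CPM and the other 13 from 227 to 329, whatever the sex or strain. For 6 members (Ugt2a3, Ugt2b5, Ugt2b34, Ugt2b35, Ugt2b36 and Ugt3a2) every pool 3 library was above every other library of its group in all 4 groups. How many of all genes tested did so was not counted. Nor was the share of all genes with a higher fitted level in pool 3, called or not. These pool differences are therefore not shown to be particular to the members. The part of depth in this difference was not tested. In a fit without the pool 3 libraries, also added after seeing the data, the calls of Ugt2b37 between the sexes in B6, of Ugt3a1 between the sexes in C3 and of Ugt2b35 between the male strains were lost, and the other called differences kept their call. The log2 fold changes of the lost calls were then 2.02, 0.52 and -0.54, in a fit on 13 libraries that called 2.78%, 3.13% and 5.75% of all genes in these comparisons.

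**Figure D5:**
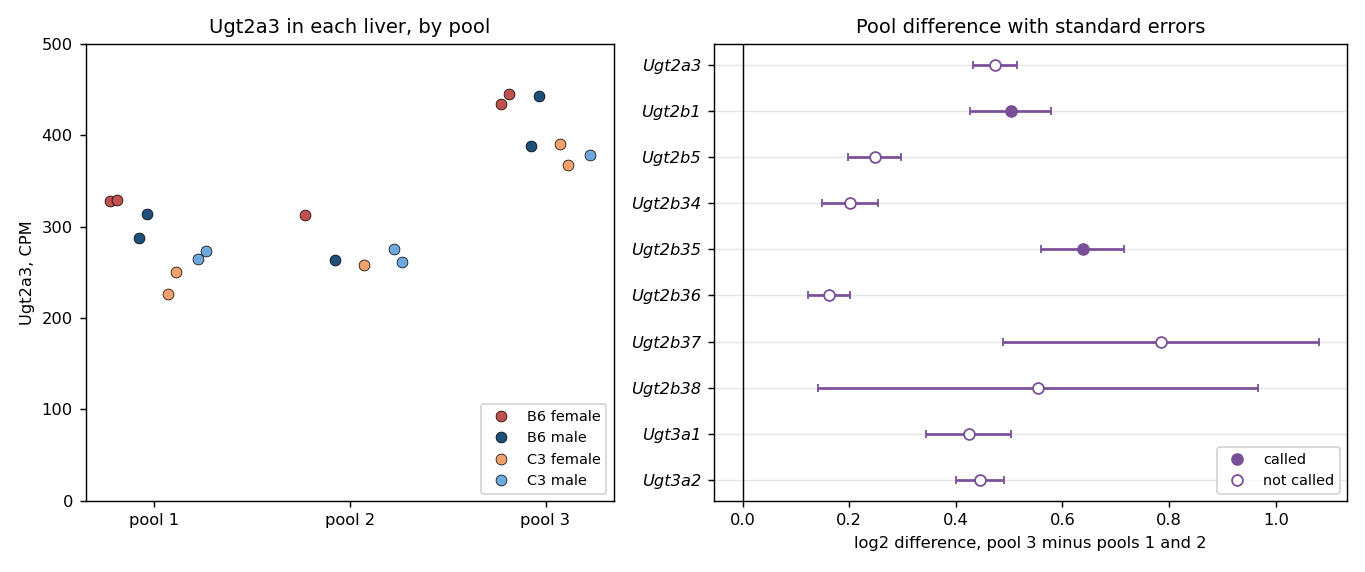
On the left, points give the CPM of Ugt2a3 in each of the 20 livers by sequencing pool, coloured by group. On the right, points give the fitted log2 difference of each gene between pool 3 and pools 1 and 2 with SE bars, filled where called. The Ugt2a3 values of pool 3 (367 to 445 CPM) lie above all others (227 to 329 CPM), and all 10 differences lie above 0.

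Other genes of the glucuronidation pathway were taken from lists chosen with earlier results known. Of the other UDP-glycosyltransferases, 11 of 12 were in the table and 8 were tested. In B6, 2 were called higher in females and 2 higher in males, and in C3, 3 and 2. Between strains none was called by edgeR, while DESeq2 called 1 in females and none in males. There 5 in females and 3 in males had an unadjusted edgeR p under 0.05, beside 5739 and 6070 of the 13704 genes tested. Ugt1a1, the bilirubin-conjugating enzyme, was higher in females, with a log2 fold change (female over male) of 0.70 (SE 0.10, edgeR adjusted p = 3.08e-05) in B6 and 0.65 (SE 0.10, edgeR adjusted p = 9.4e-05) in C3. Ugt1a9 was also higher in females, at 1.58 and 1.21. Ugt1a5 was called higher in females in C3, at 2.09 (SE 0.26, edgeR adjusted p = 9.86e-06), and had 1.08 (SE 0.25, edgeR adjusted p = 0.00331) in B6. Ugt1a6a and Ugt1a6b, enzymes of small phenols, were higher in males. Ugt1a6a was at -0.71 in B6 and -0.76 in C3, and Ugt1a6b at -0.90 in B6 and -0.91 in C3. The Ugt1a genes share their last exons, and reads there overlap several genes and were not counted, so their levels are uncertain.

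Of the 6 genes that supply UDP-glucuronic acid or reverse glucuronidation, 2 were called in B6 and 3 in C3, all higher in males. Ugdh, which makes UDP-glucuronic acid from UDP-glucose, had a log2 fold change (female over male) of -0.70 (SE 0.092, edgeR adjusted p = 1.46e-05) in B6 and -1.16 (SE 0.094, edgeR adjusted p = 3.53e-08) in C3. Ces1e, which holds β-glucuronidase in the endoplasmic reticulum, had -0.95 and -1.01, and was the 1 gene of the list called between strains, higher in C3 by 0.78 in females and 0.85 in males. The third gene called in C3 was Slc35b1, a nucleotide carrier of the endoplasmic reticulum, at -0.70 (SE 0.13, edgeR adjusted p = 0.000424), with -0.53 in B6. Of 7 genes that carry glucuronides out of or into hepatocytes, 2 were called higher in females and 2 higher in males, in both strains. The exporter Abcg2 (-1.81 in B6 and -1.88 in C3) and the uptake carrier Slco1a1 (-1.63 and -2.20) were male-biased. The uptake carrier Slco1a4 (1.89 and 1.82) and the exporter Abcc4 (0.72 and 1.29) were female-biased, and Abcc4 was also called lower in C3 males than in B6 males.

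None of 9 transcription factors known to act on Ugt genes was called by edgeR in any of the 5 tests. They included Hnf4a and the xenobiotic sensors Nr1i2 and Nr1i3. Between 1 and 5 of the factors had an unadjusted edgeR p under 0.05 in a test, beside between 2203 and 6720 of the 13704 genes tested. DESeq2 called 1, between the strains in females, and limma none. Hnf4a came nearest in C3, at -0.44 (SE 0.090, edgeR adjusted p = 0.00121) for female over male. Of 8 growth hormone pathway factors, Cux2, a repressor of male-biased genes found in female liver, was called higher in females at 5.56 (SE 0.52, edgeR adjusted p = 2.33e-07) in B6 and 6.30 (SE 0.52, edgeR adjusted p = 4.52e-08) in C3. Bcl6, a repressor of female-biased genes found in male liver, was called lower in females in B6 (-2.44) and had -1.71 (SE 0.47, edgeR adjusted p = 0.00843) in C3, which missed the threshold. Igf1 was called higher in C3 males than in B6 males, at 0.51.

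The genes with the most similar pattern were sought as the smallest distance between the 4 group means of log2 CPM, each gene centred on its own mean, for the 7 members called in at least 1 comparison. Nearest to Ugt2b1 were Atp8b4 (distance 0.0778) and Cyp2c55 (0.129), to Ugt2b37 Fmo2 (0.290) and Slc16a5 (0.355), and to Ugt2b38 Omd (0.342) and Hsd3b5 (0.450). Nearest to Ugt2b35 were B4galnt3 (0.129) and Spc24 (0.132), and to Ugt3a1 Ift122 (0.0649) and I830077J02Rik (0.108). These distances rest on 4 points and are not adjusted for pool. Nearest to Ugt2b5 were Rnu11 (0.0320) and 3110045C21Rik (0.0629), and to Ugt3a2 Zfp422 (0.0462) and Orc6 (0.0497). The pool-adjusted log2 fold change (female over male) was -0.41 in B6 and 0.0072 in C3 for Rnu11, and -0.41 and -0.665 for 3110045C21Rik.

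The depth and make-up of the libraries were checked with marker lists. Total counts were between 27370921 and 46835745, and every member was above 3 counts in every library. The 6 hepatocyte markers summed to between 81336 and 160290 CPM in the 20 livers, and the 3 kidney tubule markers to at most 0.0843 CPM. The sum was 107293 to 133923 CPM in B6 females, 81336 to 106508 in B6 males, 141700 to 160290.0 in C3 females and 107141 to 130124 in C3 males, and most of it was Alb. The list's median log2 fold change (female over male) had the opposite sign to the difference of the sums, at -0.072 in B6 and -0.28 in C3. Alb was at 0.42 and 0.46, while the other 5 hepatocyte markers lay between -0.44 and -0.0047 in B6 and between -0.35 and -0.24 in C3. Neither edgeR, DESeq2 nor limma called a member of the list between the sexes. An unadjusted edgeR p under 0.05 was found for 3 in B6 and 6 in C3, beside 6091 and 6720 of the 13704 genes tested. The 5 Kupffer cell markers summed to 338 to 454 CPM in B6 females, 206 to 339 in B6 males, 232 to 356 in C3 females and 152 to 227 in C3 males. In each strain edgeR called 1 of the 5 higher in females, while DESeq2 called 1 in B6 and 0 in C3. The 4 stellate cell markers ran from 483 to 566 CPM in B6 females, 378 to 415 in B6 males, 378 to 403 in C3 females and 297 to 344 in C3 males. The 4 sinusoidal endothelial markers summed to 330 to 392 CPM in B6 females, 255 to 291 in B6 males, 303 to 355 in C3 females and 255 to 310 in C3 males. None of these 4 was called between the sexes by edgeR, DESeq2 or limma. In each strain 3 had an unadjusted edgeR p under 0.05, beside the 6091 genes in B6 and 6720 in C3 given above. The 5 lymphocyte markers summed to 2.09 to 4.06 CPM in B6 females, 1.07 to 3.85 in B6 males, 1.55 to 2.27 in C3 females and 0.402 to 0.784 in C3 males. Cholangiocyte markers summed to at most 44.3 CPM, most of it Spp1, and Sox9 was called higher in males of both strains. Intestinal markers summed to at most 88.4 CPM, nearly all of it Fabp2, with Vil1 at most 0.778 CPM and Cdx2 at 0. The globin genes were at 0 in every library. Reads with several alignments or several genes were not counted, and their part in these zeros was not tested. Of the blood list only Alas2 was tested, and it was called higher in males. The amount of blood in the livers cannot be judged from this 1 gene. Between the strains edgeR called 3 Kupffer cell markers lower in C3 females and 2 in C3 males, where 9.40% and 9.64% of all genes were called. Apoa1 was called higher in C3 in both sexes and Cyp2e1 lower in C3 females. Lyve1 of the endothelial list was called lower, and Sox9 higher, in C3 females. No stellate cell or lymphocyte marker was called between the strains by edgeR. The part of cell make-up in the differences of the Ugt genes was not tested.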

How the data were processed

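RNA of 20 livers was analysed, 5 per group, with strain, sex and pool taken from the sample labels. Raw counts per gene were deposited, made by the authors from strand-specific libraries with Cutadapt 1.9.1, STAR 2.5.1b (mm9) and featureCounts (Subread 1.5.0-p1), per their processing notes. Reads with several alignments or several genes were not counted. The deposited TPM table divides these counts by a length that was the same for a gene in every library, and how it was defined is not given in the sources used here. The headers of the first 2 columns are exchanged in the deposited tables, which were read by content.

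Counts were fitted in R 4.3.3 with edgeR 4.0.16 (filterByExpr, TMM, quasi-likelihood F test, terms for group and pool, all 20 libraries). P-values were adjusted by Benjamini-Hochberg over 13704 tested genes, and calls required an adjusted p under 0.001 with an absolute log2 fold change over 0.5. SE is the log2 fold change divided by the square root of F. In simulated counts of the B6 sex comparison, 69 of 100 genes changed by log2 1 and 88 of 100 changed by log2 2 were called, and 0 of the unchanged genes were called. The simulated counts had the fitted spread of each gene around a common baseline, with no effect of pool or strain. They do not show how the test fares where such effects are present. Total counts of 27370921 to 46835745 put the floor of 3 counts between 0.0641 and 0.11 CPM, which covers counting error only. Within-pool differences used log2 CPM after adding 0.5 counts, with 1 or 2 livers per group in each pool. These CPM were scaled by library totals without TMM, unlike the edgeR fold changes. Alternatives were DESeq2 1.42.0, limma 3.58.1 on log2(TPM + 1) or log2(TPM + 0.1), other scalings and filters, no pool term, a replicate block, the 2 groups alone, a looser threshold, and leaving out each liver or pool 3 (the last added after seeing the data).

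Each of the 10 members is named in every comparison, and from each gene list up to 4 genes past the threshold with the smallest p in a comparison, with their values in both strains. Other genes named, such as Hnf4a and Bcl6 in C3, were chosen after their values were seen. A further gene of the transcription factor list is not reported here. The members, gene lists and tests were chosen with earlier results of these data known. Promoters are from RefSeq (GRCm38.p6) and transcripts from GENCODE vM1.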

Additional observations from a re-analysis of the deposited data

Results flagged for a closer look

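Of the 40 sets of 5 livers (10 genes in 4 groups), 4 held a liver far from the other 4 by Dixon's test on CPM, and chance flags about 1 in 20 sets. C3 male 4 stood apart for Ugt2a3, at 379 CPM beside 262 to 276 in the other C3 males, and for Ugt3a2, at 373 CPM beside 265 to 290. This was the only C3 male library in pool 3, and the other pool 3 libraries were also high for both genes within their groups. C3 female 3 stood apart for Ugt3a1, at 54.5 CPM beside 27.9 to 31.5, and it too was in pool 3, as was C3 female 2, which lay at 30.7 CPM. C3 female 4, in pool 1, stood apart for Ugt2b38, at 1.83 CPM beside 0.330 to 0.435, still below the lowest C3 male at 14.6 CPM. No cause was tested.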

How the results depend on the processing

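The number of members called (4 and 6 between the sexes in B6 and C3, 2 and 3 between the strains in females and males, 0 for the interaction) ran from 3 to 4, 5 to 6, 2 to 3, 2 to 3 and 0 to 0 when each liver was left out in turn. In these fits the share of all genes called ran, in the same order, from 5.04% to 6.54%, 4.79% to 8.04%, 8.35% to 9.28%, 8.02% to 9.93% and 0.231% to 0.399%. Without the pool term the number of members called was 2 and 4 between the sexes in B6 and C3 and 1 between the strains in males. The share of all genes called then fell from 6.34% to 3.07%, from 6.90% to 3.52% and from 9.64% to 6.43%. At an adjusted p under 0.05 with no fold threshold the number of members was 7 and 9 between the sexes in B6 and C3, beside 34.6% and 40.0% of all genes. It was 7 and 6 between the strains in females and males, beside 32.9% and 34.5%, and 1 for the interaction, beside 2.96%. In a fit with the replicate block it was 3, 5, 2, 3 and 0, beside 6.17%, 6.81%, 8.92%, 9.22% and 0.292% of all genes, with the calls of Ugt2b37 in B6 (log2 fold change 2.17) and of Ugt3a1 in C3 (0.53) lost. Correlations between the deviations of mice with the same number had means between -0.24 and 0.218 over the 4 comparisons. Single pairs ran from -0.463 to 0.631. With the pool removed the means lay between -0.0132 and 0.0997. With 5 pairs per comparison this cannot exclude a pairing, and the labels name none. The calls of Ugt2b1 and Ugt2b38 between the sexes in both strains, of Ugt2b5 and Ugt2b37 between the sexes in C3, of Ugt2b5 between the strains in females and of Ugt3a1 between the strains in both sexes were made in all 12 other settings and all 20 fits without 1 liver.

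Directions turned only for differences that were not called. Most lay near 0, while that of Ugt2b38 between the male strains had a wide error (log2 fold change 0.17, SE 0.49). Between the sexes in B6, Ugt3a1 was at 0.044 with upper-quartile scaling and at 0.093 and 0.094 with limma (pseudocounts 1 and 0.1), and Ugt3a2 at 0.046 with both. Without 1 liver, Ugt3a1 ran from -0.068 to 0.014. Ugt3a2 between the sexes in C3 was at -0.00026 with DESeq2, -0.0026 without pool 3 and -0.025 to 0.057 without 1 liver. Between the male strains, Ugt2b38 was at -0.26 without the pool term and -0.24 to 0.63 without 1 liver, and Ugt2a3 at -0.074 to 0.00070 without 1 liver. In the interaction, Ugt2b35 was at -0.044 without pool 3 and Ugt2b34 at -0.10 to 0.012 without 1 liver. The cause was not tested.

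In shares of summed CPM, which are not corrected for length, Ugt2b5 held 23.3%, 23.0%, 18.5% and 19.4% in B6 females, B6 males, C3 females and C3 males, Ugt2b36 17.6%, 15.8%, 19.4% and 16.8%, and Ugt2b1 11.4%, 20.6%, 13.7% and 28.4%. The depth allowed every member to be seen in every liver, but the spread of the low members Ugt2b37 and Ugt2b38 limits what their strain comparison can show.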
